A study of Mus musculus with 12 samples.

Results

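The genes described are 7 matrix metalloproteinases (Mmp2, Mmp8, Mmp9, Mmp12, Mmp13, Mmp14 and Mmp19) and 3 tissue inhibitors of metalloproteinases (Timp1, Timp2 and Timp3). They were taken by name, with earlier results of these data known. All 10 were found among the 36439 genes of the count tables through their Ensembl identifiers. Their RNA was measured by sequencing tumour-associated macrophages (TAMs), which are the macrophages that populate a solid tumour, in 4 groups of 3 libraries. All cells came from Lewis lung carcinoma, a transplantable mouse lung tumour, growing subcutaneously in mice of the C57BL/6 strain.

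The first group was F4/80+MRC1+ TAMs, which carry the macrophage protein F4/80 and the mannose receptor MRC1. The second was F4/80+CD11c+ TAMs, which carry CD11c, an integrin subunit. The last groups were F4/80+ TAMs overexpressing the microRNA miR-511-3p or its mutated form, miR-511-3p-mut, and their titles carry the prefix SFFV. The labels give no treatment, time or age, and they do not say whether replicates came from separate mice or from pooled tumours. P-values therefore measure only the spread between these samples, which may be technical. MRC1+ was compared with CD11c+, and miR-511-3p with its mutated form. Levels are given in CPM (reads of a gene scaled to a library of fixed size), scaled separately for the sorted and the overexpression libraries, so levels set across these experiments are not tested.

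Matrix metalloproteinases are zinc-dependent proteases, most of them secreted as inactive precursors, that cut collagens, elastin, laminins and other proteins of the extracellular matrix as well as growth factors, chemokines and their carriers. TIMPs bind the active site and block them. In tumours, macrophages are a known source of several of these enzymes, which are known for opening matrix to invading cells and new vessels. RNA levels do not show protein, activation or activity.

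The deposited counts gave 10824918 to 17689064 reads over genes per sorted library and 22906418 to 27890433 per overexpression library. The labels fitted the genes that define them: Mrc1 was at 3609 to 4099 CPM in MRC1+ and 1447 to 1826 CPM in CD11c+ TAMs, and Itgax, which encodes CD11c, at 78.6 to 123 and 943 to 1051 CPM. Mir511, the hairpin gene, had 63 to 80 reads in each miR-511-3p library and 3 to 9 in each mutated one. All 9 macrophage markers were detected in every library, with summed levels of 8907 to 14177 CPM. Some libraries stood apart. The first CD11c+ library had the highest sum of 13 fibroblast and pericyte markers, 1253 CPM against 291 and 347 CPM in the others of its group, and the third miR-511-3p-mut library had 679 CPM against 183 and 169. MRC1+ libraries had 668 to 918 and miR-511-3p libraries 91.7 to 273 CPM, and all 13 markers were detected in every library. Whether fewer cells of a type or less RNA per cell lies behind a low level cannot be told apart in such bulk samples.

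The microRNA and its possible sites in these genes are shown first because the overexpression experiment bears on them. The mature sequence, from RefSeq on GRCm38.p6, lies at chr2:14261051-14261072 on the plus strand, and its seed (bases 2 to 8, the part that pairs with targets) is in capitals:
miR-511-3p: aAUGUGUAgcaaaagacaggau

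The matching site ACACATA (the complement of bases 2 to 7 followed by A) stood once in the longest 3′ UTR of Mmp8 and once in that of Mmp12, 2 of the 9 genes reported for such sites. Neither TACACAT nor TACACATA, the longer matches, was found in any of the 9. Among all 21092 genes with a 3′ UTR, 4226 (20.04%) held a match of any of these kinds. The match begins at base 378 of the 947 bases of that 3′ UTR in Mmp8 and at 134 of 2134 in Mmp12 (GENCODE M21, GRCm38). Capitals mark the match, and the flanks are shown to tell the sites apart:
Mmp8: gaagattataaACACATAgatattatccc
Mmp12: acaggtcacacACACATAgttacacagaa

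Promoters are shown for Mmp12, Mmp13 and Timp2, which differed between the sorted groups, and for Mmp8, which lies in the same gene cluster as Mmp12 and Mmp13. RefSeq promoter entries (GRCm38.p6) were matched for 7 of the 10 genes, with 8 start sites. Each sequence runs from 100 bases before to 20 after the annotated start, and capitals mark a TGANTCA heptamer (the element bound by AP-1 factors) or TATAAA on either strand. Mmp13 is at chr9:7272414-7272533 (plus strand), Mmp12 at chr9:7347274-7347393 (plus), Mmp8 at chr9:7558329-7558448 (plus) and Timp2 at chr11:118355392-118355511 (minus):
Mmp13: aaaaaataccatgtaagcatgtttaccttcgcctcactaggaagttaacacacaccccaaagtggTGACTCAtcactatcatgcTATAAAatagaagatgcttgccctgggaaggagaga
Mmp12: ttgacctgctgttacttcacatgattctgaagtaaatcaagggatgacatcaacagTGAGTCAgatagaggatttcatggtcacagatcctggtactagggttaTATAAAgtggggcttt
Mmp8: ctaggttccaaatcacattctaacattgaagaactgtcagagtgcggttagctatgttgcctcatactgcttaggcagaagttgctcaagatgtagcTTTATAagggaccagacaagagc
Timp2: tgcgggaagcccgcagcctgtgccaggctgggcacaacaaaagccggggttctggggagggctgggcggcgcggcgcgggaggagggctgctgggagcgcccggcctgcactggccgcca

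Windows from 250 bases before to 50 after the start were searched on both strands, and the motifs do not overlap each other in them. TGANTCA was in 2 of the 8 windows of these genes, Mmp13 and the second of 2 starts of Mmp12, and in 7.81% of 32851 windows of all genes. TATAAA was in 3 of 8 (Mmp13, Mmp12 and, on the minus strand, Mmp8) and in 13.6% of all. GAGGAA, the core bound by the macrophage factor PU.1, was in 2 of 8 (Mmp8 and the first start of Mmp12) and in 28.3% of all. The windows differed in base composition, with a median of 52.7% guanine and cytosine over all windows. The share was 40.7% in that start of Mmp12 with the heptamer, 38.7% in its first start, 43.7% in Mmp13 and 46% in Mmp8. It was 68.7% in Timp2 and 67% in Timp3, while Mmp14 (56%) and Timp1 (55%) lay between. A match is a description of letters, not of binding.

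Between MRC1+ and CD11c+ TAMs, the inhibitor Timp2 was higher in MRC1+ cells, and the proteases Mmp12 and Mmp13 were lower. The other 7 genes did not pass the test (edgeR's quasi-likelihood fit, p adjusted by Benjamini-Hochberg over 15622 genes, threshold 0.05). The count was 1 of 10 higher and 2 of 10 lower, where 6.91% of all tested genes were higher and 9.71% lower. The median log2 fold change of MRC1+ over CD11c+ was -0.17 for the 7 proteases and 0.43 for the 3 inhibitors, beside 0.01 for all genes. These medians are the values of Mmp14 and Timp3, neither of which passed. Above 0 lay 2 of the 7 proteases and 3 of the 3 inhibitors. All 10 passed the filter on low counts in both comparisons.

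**Figure D1:**
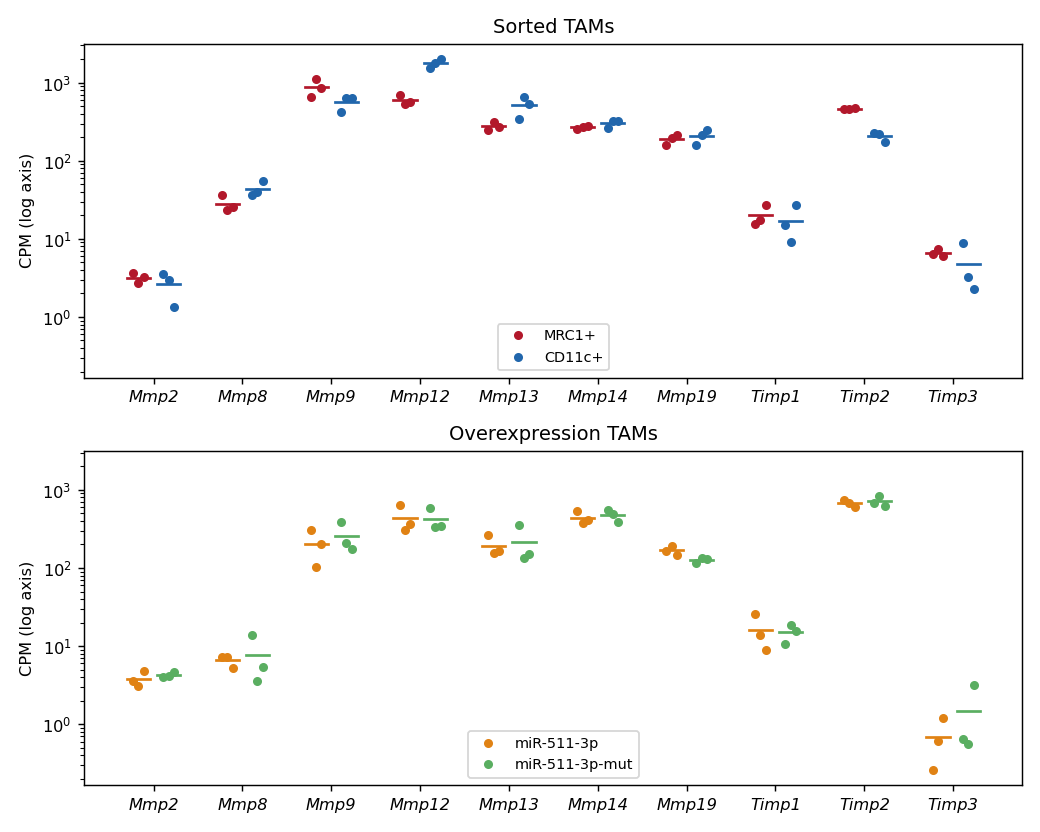
CPM on a log axis for each of the 10 genes, with points for single libraries and lines for group means, sorted TAMs above and overexpression TAMs below. In the sorted TAMs the groups separate widely for Mmp12 and Timp2, while in the overexpression TAMs no gene passed the test.

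The gelatinases Mmp9 and Mmp2 cut denatured collagen and the collagen of basement membranes. Mmp9 was at 657, 1127 and 847 CPM in the 3 MRC1+ libraries and at 425, 628 and 638 CPM in the 3 CD11c+ libraries. Each MRC1+ value lay above each CD11c+ value, although the lowest of the former was close to the highest of the latter. The log2 difference was 0.64 ± 0.22 (SE), and it did not pass (adjusted p = 0.0854). It passed when the replicate number entered the fit as a block (0.63, adjusted p = 0.0133) and with DESeq2 (adjusted p = 0.0214), and over all alternatives the adjusted p ran from 0.0111 to 0.274. Mmp2, made mostly by fibroblasts in many tissues, was rare: 3.61, 2.74 and 3.23 CPM in MRC1+ and 3.52, 2.98 and 1.34 CPM in CD11c+ libraries. These groups overlapped, and the lowest value rested on 13 reads (log2 difference 0.24 ± 0.32, adjusted p = 0.642).

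The collagenases Mmp13 and Mmp8 cut the triple helix of fibrillar collagen, Mmp8 being the enzyme stored by neutrophils. Mmp13 (ENSMUSG00000050578) was at 249.9, 312.1 and 272 CPM in MRC1+ and at 339, 652 and 541 CPM in CD11c+ libraries. The groups did not overlap, but the first CD11c+ library was much nearer to the MRC1+ values than the other two. The log2 difference was -0.88 ± 0.22 (adjusted p = 0.0298). The difference was as large in the fit of all 12 libraries, but the call was lost there (-0.88, adjusted p = 0.101). It was lost too without MRC1+ library 1 (-0.79), 2 (-0.98) or 3 (-0.87) and without CD11c+ library 2 (-0.66) or 3 (-0.82), with an adjusted p of 0.0594 to 0.101. Without the first CD11c+ library it was -1.10 (adjusted p = 0.00044).

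Mmp8 was at 36.6, 23.1 and 25.3 CPM in MRC1+ and at 36.5, 40.2 and 54.6 CPM in CD11c+ libraries. The first library of each group had almost the same value, so the groups overlapped, while the other CD11c+ values lay above all MRC1+ values. The log2 difference of -0.62 ± 0.21 did not pass (adjusted p = 0.0754), though it did with DESeq2 (adjusted p = 0.0239) and when the first CD11c+ library was left out (-0.74, adjusted p = 0.0281). The summed level of 12 neutrophil markers was 59.7 to 84.9 CPM in MRC1+ and 54.2 to 129 CPM in CD11c+ libraries, with 10 to 12 of the 12 detected. Of the 7 tested, 1 lay above 0, the median log2 difference was -0.48, the same sign as that of Mmp8, and 1 was lower in MRC1+ TAMs (Csf3r, the receptor of a neutrophil growth factor, -0.62 ± 0.16, adjusted p = 0.0314). Their part in the level of Mmp8 was not tested. Ly6g, which defines mouse neutrophils, was at 0.0622 to 0.158 and 0 to 0.176 CPM, and Elane, a neutrophil granule protease, had 2 reads in all MRC1+ and 4 in all CD11c+ libraries.

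Mmp12 (ENSMUSG00000049723), the macrophage elastase, had the widest difference of the 10 genes. It was at 692, 539 and 568 CPM in MRC1+ and at 1521, 1808 and 2002 CPM in CD11c+ libraries. Every CD11c+ library held more than any MRC1+ library by a wide margin, with group means of 1777 ± 242 (SD, n = 3) and 599 ± 81.3 CPM. The log2 difference was -1.57 ± 0.14 (adjusted p = 0.000345), called under all 12 alternatives, with an adjusted p of at most 0.00296. Its exons overlap those of Mmp1b on the opposite strand in the annotation. The use of strand in counting is not stated in the sources at hand, so reads over the shared bases cannot be told apart. Mmp1b itself was counted at 0 to 12 reads per library, too few to be tested.

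Of 12 dendritic cell markers, 10 were lower in MRC1+ than in CD11c+ TAMs, with summed levels of 80.7 to 89.2 and 402 to 727 CPM. They moved in the same direction as Mmp12 and Mmp13, and their part in those differences was not tested. Other marker lists moved as well. Of 9 macrophage markers tested, 5 lay above 0 with a median of 0.02, 2 were higher in MRC1+ TAMs and 0 were lower. The higher ones were Adgre1 (0.80 ± 0.14, adjusted p = 0.00733) and Mertk (0.54 ± 0.13, adjusted p = 0.0270). Of 6 epithelial and carcinoma markers tested, 4 were higher in MRC1+ TAMs (Krt8, Krt18, Krt19 and Hmga2, by 1.02 to 1.42 on the log2 scale) and 2 were lower (Cdh1 and Epcam), with summed levels of 151 to 219 CPM in MRC1+ and 124 to 178 CPM in CD11c+ libraries. Of 5 endothelial markers tested, 1 was higher and 3 were lower (39.6 to 49.1 and 92.0 to 137 CPM). Of 9 T and NK cell markers tested, 2 were lower and only 1 lay above 0, Cd4, which did not pass. Cd4, with means of 89.3 CPM in MRC1+ and 44.7 CPM in CD11c+ TAMs, held much of their summed levels (70.1 to 142 and 33.6 to 123 CPM). The part of all these markers in the differences of Timp2, Mmp12 and Mmp13 was not tested either.

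Mmp14, a membrane-anchored protease that cuts fibrillar collagen and activates the precursor of Mmp2, did not pass the test. It was at 258, 268 and 275 CPM in MRC1+ and at 260, 320 and 323 CPM in CD11c+ libraries. The first CD11c+ library fell among the MRC1+ values and the other CD11c+ libraries above them (log2 difference -0.17 ± 0.11, adjusted p = 0.289). Without that library the difference was -0.27 (adjusted p = 0.0426). Mmp19, a secreted protease known to cut basement membrane proteins, was at 161, 193 and 217 CPM in MRC1+ and at 158, 212 and 246 CPM in CD11c+ libraries. The ranges overlapped almost completely (log2 difference -0.11 ± 0.17, adjusted p = 0.703).

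Among the inhibitors, Timp2 (ENSMUSG00000017466) blocks many metalloproteinases and, bound to Mmp14, also takes part in the activation of the Mmp2 precursor. It was at 462, 454 and 481 CPM in MRC1+ and at 229, 219.9 and 174 CPM in CD11c+ libraries. The MRC1+ libraries lay close together, with a mean of 465 ± 13.9 CPM (SD, n = 3), and all above the CD11c+ libraries at 208 ± 29.8 CPM. The log2 difference was 1.16 ± 0.12 (adjusted p = 0.000526), called under all 12 alternatives, with an adjusted p of at most 0.0046.

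Timp1, a secreted inhibitor that many cells induce in inflammation, was at 15.4, 17.5 and 27.4 CPM in MRC1+ and at 14.9, 9.23 and 27.1 CPM in CD11c+ libraries. The third library was the highest in both groups, and the groups overlapped (log2 difference 0.26 ± 0.37, adjusted p = 0.664). Timp3, which binds to matrix and also blocks ADAM proteases, was at 6.47, 7.38 and 5.97 CPM in MRC1+ and at 8.73, 3.28 and 2.26 CPM in CD11c+ libraries. The first CD11c+ library was higher than all MRC1+ libraries and the others were lower than all of them (log2 difference 0.43 ± 0.42, adjusted p = 0.515). Without that library, Timp3 was higher in MRC1+ by 1.21 on the log2 scale (adjusted p = 0.00454). Its exons overlap those of Syn3 on the opposite strand, and reads over the shared bases cannot be told apart.

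**Figure D2:**
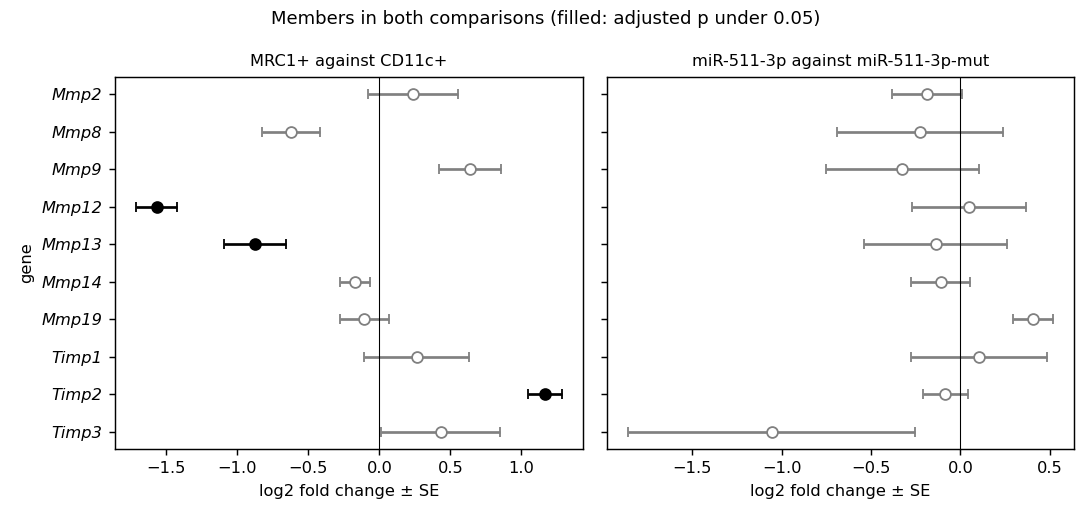
Log2 fold change with its SE for the 10 genes, MRC1+ over CD11c+ on the left and miR-511-3p over miR-511-3p-mut on the right, with filled points for an adjusted p under 0.05. Mmp12 (-1.57), Mmp13 (-0.88) and Timp2 (1.16) are filled on the left and no gene is filled on the right.

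The first CD11c+ library, which had the high fibroblast markers, thus decided several calls. With it 3 of the 10 genes passed and without it 6 did (Timp2, Timp3, Mmp12, Mmp13, Mmp8 and Mmp14). The count over all genes also rose, from 2597 of 15622 tested to 4707. The number tested without that library is not given here, so the 6 of 10 have no share of all genes beside them. Timp3 was highest, at 8.73 CPM, in the library with 1253 CPM of fibroblast markers, and lowest, at 0.261 CPM, in that with 91.7 CPM. At nearly equal sums in between, the second MRC1+ library (668 CPM) held 7.38 CPM of Timp3 and the third mutated library (679 CPM) 3.20 CPM, on scales set separately. Over all libraries together Mmp2 showed no such order, and was at 3.05 to 4.74 CPM in the miR-511-3p libraries, where the markers were low. Within each group, however, the library with the highest marker sum also held the most Mmp2. Mmp2 was there at 3.61 CPM in MRC1+, 3.52 in CD11c+, 4.74 with miR-511-3p and 4.70 with the mutated form. The same held for Timp3 in all groups but MRC1+. The part of fibroblast RNA in the levels of Timp3 and Mmp2 was not tested.

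**Figure D3:**
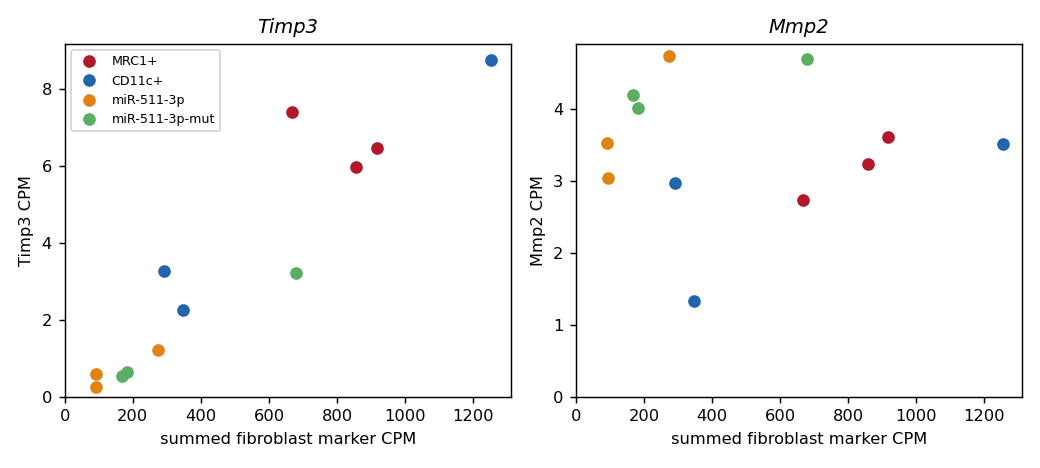
CPM of Timp3 (left) and Mmp2 (right) against the summed CPM of 13 fibroblast and pericyte markers, 1 point per library, coloured by group. Timp3 runs from 0.261 CPM at the lowest marker sum, 91.7 CPM, to 8.73 CPM at the highest, 1253 CPM. Mmp2 stays between 1.34 and 4.74 CPM with no such order over all libraries together, though within each group it is highest at the highest sum.

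To compare levels between genes, CPM were divided by the length of each gene's exons in kilobases. In MRC1+ TAMs, Mmp9 was the most abundant RNA of the 10, at 248 CPM per kb, and its libraries did not overlap with those of the next gene. Timp2 (119), Mmp13 (104) and Mmp12 (82.8 CPM per kb) followed, and neighbours in this order overlapped between libraries. Mmp19 (53.8) and Mmp14 (44.8) came next, also overlapping, then Timp1 at 22.6 and Mmp8 at 11.7 CPM per kb. Mmp2 and Timp3, at 0.947 and 0.811 CPM per kb, overlapped at the bottom.

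In CD11c+ TAMs, the order began with Mmp12 at 246, Mmp13 at 191 and Mmp9 at 159 CPM per kb, each overlapping with the next. Mmp19 (58.1), Timp2 (53.3) and Mmp14 (50.5 CPM per kb) formed a group whose neighbours overlapped, followed by Timp1 (19.2) and Mmp8 (18.1), which overlapped too. Mmp2 and Timp3 were again lowest, at 0.775 and 0.584 CPM per kb. The order depends on the length used: with the longest coding transcript alone, Mmp12 was at 166 CPM per kb in MRC1+ and 493 in CD11c+ TAMs, and ranked second in MRC1+, while Mmp14 was at 82.5 and 93.0 CPM per kb and ranked above Mmp19 in both groups. In MRC1+ TAMs no neighbours overlapped on that length.

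The ratio of Timp2 to its binding partner Mmp14, in CPM per kb of exon, was 2.73, 2.59 and 2.67 in the MRC1+ libraries. In the CD11c+ libraries the ratios were 1.35, 1.05 and 0.822, so the values of the groups did not overlap. The overexpression libraries had 2.10, 2.77 and 2.22 with miR-511-3p and 1.85, 2.64 and 2.45 with its mutated form, overlapping each other. The size of this ratio depends on the length used, though not the order of the libraries. With the longest coding transcript it was 1.56, 1.48 and 1.52 in MRC1+ and 0.768, 0.599 and 0.469 in CD11c+ libraries, so that Timp2 lay below Mmp14 in every CD11c+ library. The corresponding ratio was taken of Timp1 to Mmp9, a protease that this inhibitor binds also in its precursor form. It was 0.0936, 0.0617 and 0.129 in MRC1+ and 0.140, 0.0586 and 0.169 in CD11c+ libraries, where the ranges overlapped. These ratios were not tested.

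Mmp13, Mmp12 and Mmp8 lie in a cluster of 10 metalloproteinase genes on mouse chromosome 9, and the genes of this cluster did not move together. In the order Mmp13, Mmp12, Mmp1b, Mmp3, Mmp1a, Mmp10, Mmp8, Mmp27, Mmp20 and Mmp7, the 2 at the first end were lower in MRC1+ TAMs. Mmp27, at the other side of Mmp8, was higher, at 6.43 ± 0.792 CPM in MRC1+ and 2.09 ± 0.697 CPM in CD11c+ TAMs (SD, n = 3; log2 difference 1.62 ± 0.26, adjusted p = 0.0048). Mmp3 (0.60 ± 0.63, adjusted p = 0.548) and Mmp10 (0.50 ± 0.24, adjusted p = 0.198) did not pass, and Mmp1b, Mmp1a, Mmp20 and Mmp7 had too few counts to be tested.

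**Figure D4:**
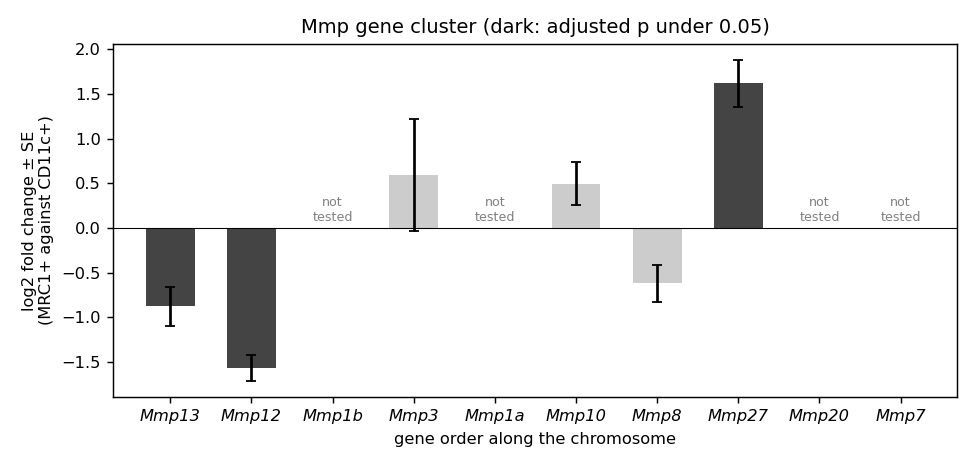
Log2 fold change of MRC1+ over CD11c+ TAMs with its SE for the 10 metalloproteinase genes of the cluster, in their order along the chromosome, with dark bars for an adjusted p under 0.05. Mmp13 (-0.88) and Mmp12 (-1.57) point down and Mmp27 (1.62) points up.

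Other genes of the system were taken from lists by name, also chosen with earlier results of these data known. Of 17 further metalloproteinases and Timp4, 8 were tested, with 1 higher in MRC1+ (Mmp27) and 1 lower, and a median log2 difference of 0.58. The lower one was Mmp25, a protease tethered to the cell surface, at 2.99 ± 0.370 CPM in MRC1+ and 17.6 ± 4.90 CPM in CD11c+ TAMs (-2.54 ± 0.24, adjusted p = 0.000398). Of 23 activators, binding partners and other inhibitors, 17 were tested, with 2 higher, 2 lower and a median of 0.00. Plau, the protease urokinase that activates plasminogen and so metalloproteinase precursors, was higher in MRC1+ TAMs, at 637 ± 69.0 against 400 ± 64.2 CPM (0.67 ± 0.14, adjusted p = 0.0144). Its receptor Plaur was lower, at 159 ± 12.3 against 371 ± 128 CPM (-1.22 ± 0.22, adjusted p = 0.00862). Thbs1, a matrix glycoprotein, was lower too (-0.90 ± 0.19, adjusted p = 0.0153), and Cd151, a tetraspanin, was higher (0.48 ± 0.11, adjusted p = 0.0228).

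Of 22 ADAM and ADAMTS proteases, which share the metalloproteinase fold and are partly blocked by Timp3, 20 were tested, with 3 higher, 2 lower and a median of 0.26. Adam9, a membrane-anchored protease, was at 584 ± 24.5 CPM in MRC1+ and 414 ± 14.8 CPM in CD11c+ TAMs (0.50 ± 0.09, adjusted p = 0.00664). Adam33 was higher (1.16 ± 0.20, adjusted p = 0.00676). Adamdec1, a secreted ADAM-like protease of macrophages and dendritic cells, was lower, at 0.159 ± 0.0784 CPM, which is only a few reads per library, against 5.27 ± 0.840 CPM (adjusted p = 8.48e-05). Adam23 was lower as well, at 1.13 ± 1.31 against 15.9 ± 4.00 CPM (adjusted p = 0.00405).

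Of 24 matrix proteins that such proteases can cut, 21 were tested. Lamc1, a laminin chain, was higher in MRC1+ TAMs (0.58 ± 0.16, adjusted p = 0.0408). Vcan, the proteoglycan versican, was lower (-0.89 ± 0.12, adjusted p = 0.00217), as was Fn1, fibronectin (-0.97 ± 0.27, adjusted p = 0.0457). Hspg2, perlecan, did not pass (0.77 ± 0.25, adjusted p = 0.0696). The list lay above 0 for 19 of 21 genes, with a median of 0.59, and several of its collagens are also among the fibroblast markers, of which 13 of 13 lay above 0 with a median of 0.48 and none passed.

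Under miR-511-3p, none of the 10 genes differed from the mutated form by edgeR's test (adjusted p = 0.999883 for each), and none of the 14054 genes tested passed in either direction (0% higher and 0% lower). With an unadjusted p under 0.05 there were 343 genes (2.44%), 1 of them among the 10. DESeq2, the fit of all 12 libraries and the fit with the replicate block each called 1 gene, none of them among the 10.

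Among the metalloproteinases and inhibitors described, the gene with an unadjusted p under 0.05 in edgeR's test was Mmp19. It was at 166, 194 and 146 CPM with miR-511-3p and at 116, 133 and 132 CPM with the mutated form. Each miR-511-3p value lay above each mutated value. The share of all tested genes whose groups separate in this way is not given here. The log2 difference was 0.41 ± 0.11 (unadjusted p = 0.00839), and between 0.29 and 0.50 when single libraries were left out. Its adjusted p ran from 0.362, with the replicate block, to 1 over the alternatives. Exons of Mmp19 overlap those of Tmem198b and Gm47093 on the opposite strand in the annotation, so reads over the shared bases cannot be told apart here.

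Mmp12 and Mmp8, whose sites are printed above, overlapped between the groups. Mmp12 was at 641, 309.2 and 367 CPM with miR-511-3p and at 588, 337 and 349.99 CPM with the mutated form, a log2 difference of 0.05 ± 0.32. Mmp8 was at 7.26, 7.15 and 5.22 CPM against 13.9, 3.598 and 5.34 CPM, where the single high value was the first mutated library (-0.23 ± 0.47). Timp3 overlapped as well. It was at 0.261, 0.602 and 1.203 CPM, from 6 to 32 reads, against 0.639, 0.550 and 3.20 CPM, from 13 to 75 reads (-1.05 ± 0.80). The high value was the third mutated library, which had the high fibroblast markers, and without it the sign turned (0.22). Depth limits what can be said of Timp3 here.

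The first library was the highest of both groups for Mmp8, Mmp9, Mmp12, Mmp13 and Mmp14. Mmp9 was at 306.995, 102 and 205 CPM with miR-511-3p and at 384, 208 and 176 CPM with the mutated form (-0.32 ± 0.43). Mmp13 was at 263, 156 and 164 CPM against 358, 133 and 149 CPM (-0.14 ± 0.40). For Mmp9, Mmp12 and Mmp13 the spread between replicates exceeded the difference between the group means.

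**Figure D5:**
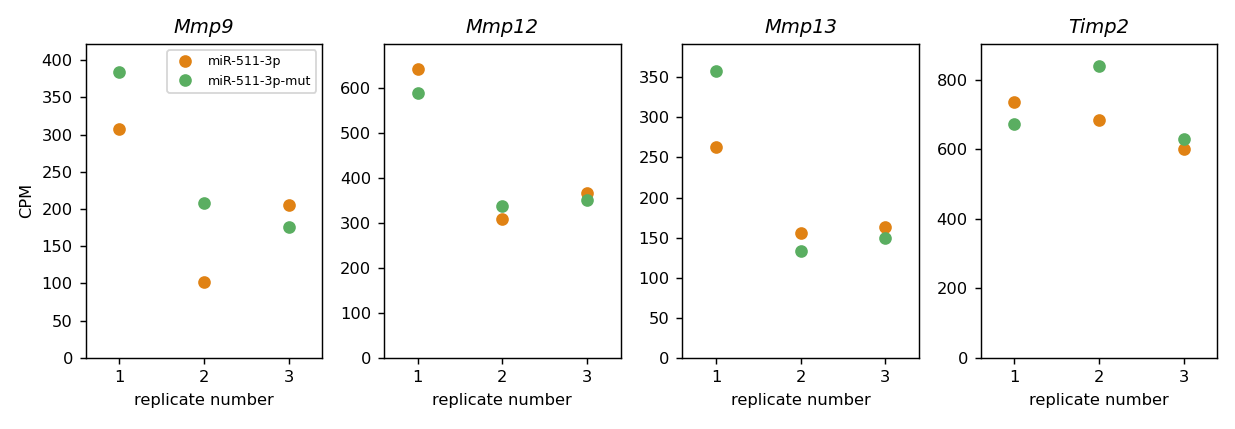
CPM of Mmp9, Mmp12, Mmp13 and Timp2 in the overexpression TAMs by replicate number, orange for miR-511-3p and green for miR-511-3p-mut, each axis from 0. The first replicate is the highest of both groups for the 3 proteases shown (641 and 588 CPM for Mmp12), while Timp2 shows no such order.

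The remaining genes overlapped between the overexpression groups. Timp2 was at 736, 684 and 601 CPM with miR-511-3p and at 672, 840.1 and 631 CPM with the mutated form (-0.08 ± 0.13). Mmp14 was at 537, 378 and 414 CPM against 555, 486 and 393 CPM (-0.11 ± 0.17). Timp1 was at 25.4, 13.8 and 8.98 CPM against 10.6, 18.9 and 15.4 CPM (0.10 ± 0.38), and Mmp2 at 3.52, 3.05 and 4.74 CPM against 4.01, 4.19 and 4.70 CPM (-0.19 ± 0.20).

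Per kilobase of exon, Timp2 led in both overexpression groups, at 173 CPM per kb with miR-511-3p and 183 with the mutated form, with no overlap with the next gene. With the longest coding transcript Timp2 still had the highest mean, but its libraries overlapped with those of Mmp14, at 182 against 137 CPM per kb with miR-511-3p and 193 against 148 with the mutated form, and Mmp12 came next after Mmp14 in both groups. By exon length with miR-511-3p, Mmp14 (74.3), Mmp13 (72.6), Mmp12 (60.7), Mmp9 (57.8) and Mmp19 (47.7 CPM per kb) followed, each overlapping with the next, and Timp1 (18.1), Mmp8 (2.70), Mmp2 (1.12) and Timp3 (0.0845) stood lower without overlap. By exon length with the mutated form, Mmp14 (80.2), Mmp13 (79.8), Mmp9 (72.4) and Mmp12 (58.7 CPM per kb) overlapped with their neighbours, and Mmp19 (36.0), Timp1 (16.8), Mmp8 (3.14), Mmp2 (1.28) and Timp3 (0.180) followed without overlap.

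The other lists had no gene that passed either. The median log2 difference of miR-511-3p over the mutated form was -0.58 for 6 further metalloproteinases, -0.03 for 16 activators and partners, -0.12 for 14 ADAM and ADAMTS proteases and -1.05 for 21 matrix proteins, beside 0.00 for all genes. The matrix list lay below 0 together with the fibroblast markers, of which 1 of 12 lay above 0 with a median of -1.33. Their sums in replicate order were 91.7, 92.8 and 273 CPM with miR-511-3p and 183, 169 and 679 CPM with the mutated form. The third library was thus the highest of both groups, and each mutated library lay above the miR-511-3p library of its number. Lowest in p among these lists were Cav1, a membrane protein of caveolae, at 92.8 ± 3.91 against 135 ± 29.4 CPM, and Mmp3, a stromelysin, at 4.57 ± 2.39 against 11.5 ± 6.04 CPM.

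The genes most like each of these in level over the 12 libraries were found by Pearson's r of log2(CPM + 1) among 9599 genes with a mean of at least 10 CPM. For this search alone, CPM were scaled over the 12 libraries together. The libraries share 2 experiments and group differences, so these values describe the libraries only. Timp2 was most like Sept8 (0.993), Sorbs3 (0.986) and Xxylt1 (0.984). Mmp12 was most like Me2 (0.972), Skint3 (0.969) and Map3k1 (0.965), and Mmp13 like Med30 (0.938), Stard7 (0.922) and Stra6l (0.918). Mmp14 was most like Gpr137b (0.984), Mmp8 like Kdm4c (0.968), Mmp9 like Dusp4 (0.930) and Mmp2 like Champ1 (0.918). Timp3 was most like Grb10 (0.989), Amot (0.986) and Ddr2 (0.983), the last a collagen receptor. The lowest best matches were those of Mmp19, to Gm9845 (0.808), and of Timp1, to Dirc2 (0.801).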

How the data were processed

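The RNA libraries were made, per the labels' protocols, with an Illumina TruSeq kit. For each library the authors deposited a table of whole-number read counts per Ensembl gene, 12 in all. Bowtie, TopHat 1.2.0, SAMtools 0.1.12a, HTSeq and mouse build mm9 (NCBIM37) are named, per the submitters' processing notes. The sources used here give neither the counting mode nor the use of strand. The 5 entries of each table that name no gene were left out. Reads aligned to several places may be missing from near-identical genes.

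Symbols and exon lengths came from GENCODE M21 (GRCm38), which gave symbols to 31819 of 36439 identifiers, and promoter and microRNA sequences from RefSeq (GRCm38.p6). No position was converted between builds. The seed match result of 1 gene is not reported here. The members and lists were chosen with earlier results of these data known. Named genes were the 10 members, the up to 4 genes of lowest p in each other list, Mrc1, Itgax and Mir511, and for each member the 3 genes most like it. Single marker genes and the cluster genes were named with their values already seen.

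Each comparison used edgeR 4.0.16 (R 4.3.3) on its 6 libraries, with TMM scaling, filterByExpr, the quasi-likelihood test and Benjamini-Hochberg adjustment at 0.05. CPM used the same factors, except in the search for the genes most like each member, which used TMM factors over all 12 libraries. Each SE was taken as log2 fold change over the root of the F statistic. Alternatives were DESeq2 1.42.0, upper-quartile scaling, no filter, 5 CPM in 3 libraries, 1 fit of all 12 libraries, a replicate block and each library left out. The steps were tested on simulated counts. Division by the longest coding transcript was added after seeing the data.

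No pair of libraries in a group agreed within sampling noise (chi-square per degree of freedom 9.18 to 33.0). Deviations of same-numbered libraries correlated at 0.104, 0.337 and 0.250 in the sorted and 0.147, 0.258 and 0.462 in the overexpression groups, all above 0.1, the limit set for taking the numbers as pairs. That pairing comes from the data, not the labels, and miR-511-3p library 1 had a higher value with mutated library 2 (0.166) than with library 1. The reported p-values come from the fit without the block, and the block was an alternative.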

Additional observations from a re-analysis of the deposited data

How the results depend on the processing

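Of the 119 alternative values of the 10 genes in the sorted comparison, 99 kept direction and side of the threshold, 9 newly passed, 6 no longer passed and 5 changed sign. In the overexpression comparison 107 of 118 kept both and 11 changed sign. The number of the 10 genes passing in the sorted comparison was 3, and 5 with DESeq2 as without a filter on low counts (Mmp8 and Mmp9 added), with 2 to 6 when single libraries were left out. Over all genes it was 2597, and 2968 with DESeq2 and 3183 without a filter, with 1270 to 4707 when single libraries were left out. In the overexpression comparison no gene passed, and 1 did with DESeq2, with all 12 libraries fitted together and with the replicate block, and the count was 0 without any single library. The replicate block changed the call of Mmp9 alone among the 10 genes, and no other call of theirs. Every change of sign came from leaving out 1 library and concerned a difference that did not pass. In the sorted comparison such values ran from -0.019 to 0.48 for Mmp2, -0.27 to 0.052 for Mmp19 (0.015 also above 0) and -0.049 to 0.74 for Timp1 (-0.040 also below 0). In the overexpression comparison they ran from -0.56 to 0.54 for Mmp8, -0.74 to 0.087 for Mmp9, -0.33 to 0.35 for Mmp12 (with -0.094 and -0.076), -0.42 to 0.46 for Mmp13, -0.27 to 0.0069 for Mmp14, -0.39 to 0.39 for Timp1 (with -0.10), -0.17 to 0.051 for Timp2 and -1.73 to 0.22 for Timp3. The cause was not tested. The filter at 5 CPM left no value for Mmp2 in either comparison and for Timp3 under overexpression. Depth limits Timp3 and Mmp2, with 6 to 149 and 13 to 126 reads per library.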
